A study of Mus musculus with 9 samples.

Results

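The 10 genes examined here encode the proteins that hold, signal and ligate the DNA breaks of class switch recombination (CSR). They are *Xrcc5*, *Xrcc6*, *Prkdc*, *Xrcc4*, *Lig4*, *Nhej1*, *Atm*, *Trp53bp1*, *Rif1* and *Mad2l2*, and they were taken by gene symbol from the 17596 genes of the deposited expression table, which held all 10. RNA sequencing had been performed on splenic B cells of 4 groups. Naïve cells (day 0) came from Mb1Cre mice (2 libraries) and from Mct1f/fMb1Cre mice (2 libraries), and cells activated in culture (day 3) came from Mb1Cre mice (2 libraries) and Mct1f/fMb1Cre mice (3 libraries). The activating agents were 10 μg/ml of LPS, which signals through TLR4, together with 50 ng/ml of IL-4, a cytokine that directs switching to IgG1 and IgE, for 3 days. All mice carried Cre under the control of *Mb1*, which is active in the B cell lineage from early in its development, and the Mct1f/fMb1Cre mice additionally carried 2 floxed copies of *Mct1* (gene symbol *Slc16a1*), a transporter of lactate and pyruvate. The floxed segment covers the first exons, so that reads from the rest of the gene can remain. The floxed allele was made on a C57BL/6J background and the mice of the study were 6 to 8 weeks old. The labels do not tie a library to an animal, so that p values measure the spread between these libraries, which may be technical. The comparison of genotypes addresses whether the end joining machinery differed in B cells of mice with floxed *Mct1*, and the comparison of days addresses how it changed when the cells were activated to switch.

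In CSR, DNA breaks are made in the switch regions that lie before the constant gene segments of the antibody heavy chain locus, and the breaks of distant switch regions are then joined to each other. The joining is carried out mainly by classical non-homologous end joining. The Ku heterodimer (Ku80, *Xrcc5*, and Ku70, *Xrcc6*) encircles the broken end and recruits the kinase DNA-PKcs (*Prkdc*), and the complex of XRCC4 and DNA ligase IV (*Lig4*) seals the ends with the help of XLF (*Nhej1*). The kinase ATM marks the chromatin around the break, where 53BP1 (*Trp53bp1*) is retained, and RIF1 together with REV7 (*Mad2l2*) acts through 53BP1 to keep the ends from being resected.

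Expression was given as fragments per kilobase of transcript, relative to the mapped fragments of the library (FPKM), which allows genes of different length to be set side by side. Spacing in the low values of short genes put the depth at roughly 17900000 to 20700000 fragments a library. By this estimate, which is approximate, *Nhej1* rested on the fewest fragments (69 to 99 in a library, a counting error of 12% at the lowest) and *Atm* on up to 5000. The targeted gene was read first. *Slc16a1* had 22.6 and 23.0 FPKM in the day 3 control libraries and 10.8, 9.81 and 9.50 FPKM in the Mct1f/fMb1Cre libraries, a log2 fold change of -1.11 (adjusted p = 9.07e-06, limma). An exact permutation test gave p = 0.2, the smallest value that 3 libraries against 2 allow in a two-sided test. On day 0 it had 4.33 and 3.80 FPKM in the control and 3.71 and 4.06 FPKM in the libraries labelled Mct1f/fMb1Cre, so that the day 0 genotypes rest on the labels.

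Some day 0 libraries stood apart. The Y-linked transcript *Ddx3y* had 0.24, 0.02 and 0.20 FPKM in both control libraries and the second Mct1f/fMb1Cre library of day 0, 31.1 FPKM in the first Mct1f/fMb1Cre library, and 14.7 to 16.9 FPKM in all 5 day 3 libraries. In the control, sex and activation thus cannot be told apart. The same first Mct1f/fMb1Cre library of day 0 also had the highest summed level of 10 myeloid genes (1838 FPKM, against 1025, 1221 and 1114 FPKM in the other day 0 libraries). Without this library, the log2 fold changes of FPKM + 1 between the days in Mct1f/fMb1Cre cells, each described with all libraries further on, were 1.11 for *Atm*, 0.99 for *Mad2l2*, 0.49 for *Xrcc6*, 0.32 for *Rif1*, 0.09 for *Xrcc5*, 0.04 for *Nhej1*, -0.04 for *Xrcc4*, -0.23 for *Prkdc*, -0.26 for *Trp53bp1* and -0.46 for *Lig4*. Sex and activation cannot be told apart in these values either, since the day 0 library that remains has little *Ddx3y*. With the second library left out in its place, so that all Mct1f/fMb1Cre libraries compared held *Ddx3y*, the values were 1.06 for *Atm*, 0.83 for *Mad2l2*, 0.52 for *Xrcc6*, 0.29 for *Rif1*, 0.17 for *Xrcc5*, 0.01 for *Xrcc4*, -0.13 for *Trp53bp1*, -0.15 for *Prkdc*, -0.23 for *Nhej1* and -0.54 for *Lig4*. By adjusted p alone (limma) 7 members passed without the first library, against 81.5% of tested genes, and 5 without the second, against 82.2%, where *Prkdc* and *Trp53bp1* did not pass, and *Lig4* was called lower there, a call being an adjusted p under 0.05 with a log2 fold change above 0.5 in size. Without the first library, the members' differences between the genotypes on day 0 lay between -0.21 (*Nhej1*) and 0.11 (*Trp53bp1*) and those of the interaction between -0.31 (*Xrcc4*) and 0.20 (*Nhej1*), and no member was called in either.

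*Xrcc6* (17.0 ± 0.637 FPKM, SD, n = 4 libraries of both genotypes) and *Mad2l2* (15.6 ± 1.22) were the most abundant and overlapped each other. *Xrcc5* (11.6 ± 0.647) and *Trp53bp1* (11.5 ± 0.969) came next and also overlapped, followed by *Atm* (9.44 ± 0.685). *Prkdc* (6.63 ± 0.446), *Xrcc4* (5.87 ± 0.215) and *Rif1* (5.74 ± 0.407) followed, with *Xrcc4* overlapping each of the others and *Prkdc* and *Rif1* apart. *Nhej1* (4.27 ± 0.584) lay below them, and *Lig4*, which encodes the ligase itself, was lowest at 2.81 ± 0.107 FPKM without overlap with any other member.

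On day 3 the order had changed at the top. *Mad2l2* now led with 31.6 ± 2.26 FPKM (SD, n = 5 libraries of both genotypes), followed by *Xrcc6* (25.3 ± 0.573) and *Atm* (22.1 ± 2.01), whose ranges overlapped. *Xrcc5* (12.3 ± 0.863), *Trp53bp1* (9.80 ± 0.641), *Rif1* (7.55 ± 0.337), *Xrcc4* (6.39 ± 0.832), *Prkdc* (5.89 ± 0.251), *Nhej1* (3.83 ± 0.616) and *Lig4* (1.70 ± 0.152) followed, of which *Xrcc4* overlapped both *Rif1* and *Prkdc* while those were apart. The summed level of the 10 genes was 85.1 to 93.9 FPKM on day 0 and 121 to 131 FPKM on day 3, and the libraries of the days did not overlap. Most of this lay in *Mad2l2* (means of 15.6 and 31.6 FPKM), *Atm* (9.44 and 22.1) and *Xrcc6* (17.0 and 25.3). The summed FPKM of all genes in the table also went up, from between 477079 and 491459 to between 547355 and 563586.

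**Figure D1:**
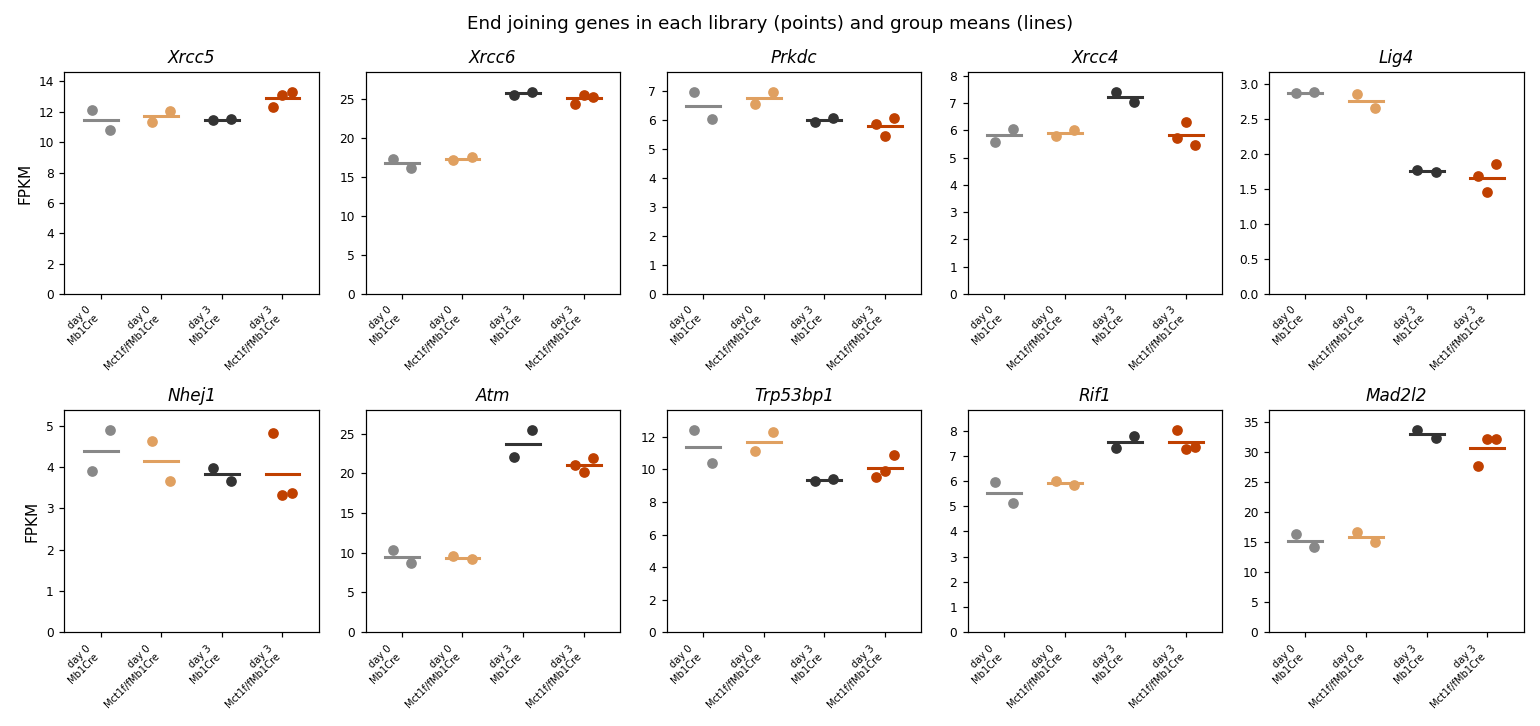
FPKM (vertical axes, each starting at 0) of the 10 end joining genes in each of the 9 libraries, with a point for each library and a line for each group mean. *Atm*, *Mad2l2*, *Xrcc6* and *Rif1* lie higher in all 5 day 3 libraries than in all 4 day 0 libraries, and *Lig4* lies lower.

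Activation was then compared gene by gene on the log2(FPKM + 1) scale, and a gene was called at an adjusted p under 0.05 with a log2 fold change above 0.5 in size. *Atm*, *Mad2l2* and *Xrcc6* rose in both genotypes and were the only members called. That is 3 of 10 members, against 24.8% of the 10823 tested genes called higher in the control and 23.4% in Mct1f/fMb1Cre cells. No member was called lower (0 of 10 in each genotype), against 33.0% and 33.2% of tested genes. By adjusted p alone, 7 of 10 members passed in each genotype, against 84.6% of genes in the control and 85.5% in Mct1f/fMb1Cre cells. *Atm*, *Mad2l2* and *Xrcc6* passed by adjusted p in both genotypes under all alternatives, while each of the other 7 except *Nhej1* changed sides in at least 1 genotype under another scaling. The libraries of the days did not overlap for 7 members in the control and 8 in Mct1f/fMb1Cre cells, against 91.9% and 89.8% of genes. The median log2 fold change of the members was 0.14 in the control and 0.06 in Mct1f/fMb1Cre cells, beside -0.12 and -0.14 for all tested genes. The members' median turned with the scaling, to -0.04 and -0.10 when the libraries were scaled to the same total, and was 0.33 and 0.25 under median-of-ratios scaling and 0.34 and 0.30 under quantile normalization.

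The median of all genes depended on the scaling (-0.31 to 0.07 in the control and -0.30 to 0.06 in Mct1f/fMb1Cre cells over the scalings tried), so each activation effect is also given relative to it. Relative to the median under each of 4 scalings, *Atm* was higher by 1.33 to 1.37 in the control and 1.21 to 1.23 in Mct1f/fMb1Cre cells. *Mad2l2* was higher by 1.13 to 1.20 and 0.96 to 1.06, *Xrcc6* by 0.64 to 0.72 and 0.55 to 0.65, and *Rif1* by 0.50 to 0.59 and 0.43 to 0.54. *Lig4* was at -0.41 to -0.08 and -0.41 to -0.02, *Xrcc4* at 0.38 to 0.47 and 0.11 to 0.23, and *Xrcc5* at 0.13 to 0.18 and 0.27 to 0.30. *Prkdc* was at 0.02 to 0.12 and -0.06 to 0.06, and *Nhej1* at -0.05 to 0.13 and 0.02 to 0.24. *Trp53bp1* was at -0.13 to -0.09 and -0.06 to -0.01.

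**Figure D2:**
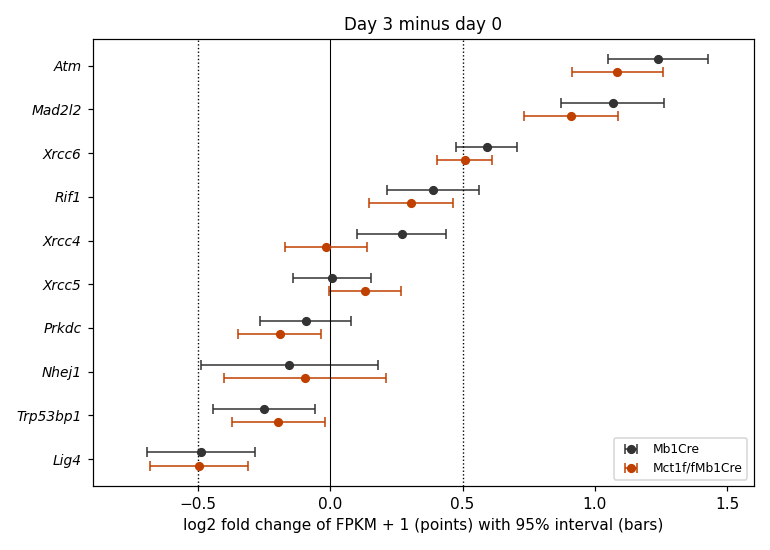
Log2 fold changes of FPKM + 1 between day 3 and day 0 (horizontal axis, points) with 95% intervals (bars) for the 10 genes in Mb1Cre and Mct1f/fMb1Cre B cells. Dotted lines mark the limit of 0.5 in each direction. *Atm*, *Mad2l2* and *Xrcc6* lie above it in both genotypes, and *Lig4* lies just inside the lower limit.

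The genes for the end-binding complex behaved unequally. *Xrcc6* (chr15:81987835-82040085, plus strand, GRCm38) had 17.4 and 16.1 FPKM in the control and 17.1 and 17.5 FPKM in Mct1f/fMb1Cre libraries on day 0. On day 3 it had 25.5 and 25.9 FPKM in the control and 24.4, 25.6 and 25.3 FPKM in Mct1f/fMb1Cre libraries. Every day 3 library was thus higher than every day 0 library, 1.49-fold on average over both genotypes. The log2 fold change was 0.59 (SE 0.0518, adjusted p = 7.98e-07, limma) in the control and 0.51 (SE 0.0473, adjusted p = 1.28e-06) in Mct1f/fMb1Cre cells. Its distance to the limit of 0.5 is short. The call was lost in both genotypes when the libraries were scaled to the same total (0.40 and 0.34) and with a pseudocount of 5 (0.498 and 0.429). With the first Mct1f/fMb1Cre library of day 0 left out the value in Mct1f/fMb1Cre cells was 0.49, and without the second of day 3 it was 0.49 as well, both below the limit. It overlaps the exons of *Desi1* on the opposite strand over 344 bases (7.69% of its exonic bases), and whether the reads were assigned by strand is not given in the sources used here.

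Its partner *Xrcc5* (chr1:72307421-72394952, plus strand) had 12.1 and 10.8 FPKM in the control and 11.3 and 12.1 FPKM in Mct1f/fMb1Cre libraries on day 0. On day 3 it had 11.5 and 11.5 FPKM in the control and 12.3, 13.1 and 13.3 FPKM in Mct1f/fMb1Cre libraries. The days overlapped in the control and not in Mct1f/fMb1Cre cells, but neither change passed the test on the values as deposited. The log2 fold changes were 0.01 (95% interval -0.14 to 0.16, adjusted p = 0.927, limma) in the control, -0.18 when the libraries were scaled to the same total (adjusted p = 0.0367, in the opposite direction), and 0.13 (-0.01 to 0.27, adjusted p = 0.0665) in Mct1f/fMb1Cre cells, -0.03 under that scaling. Under median-of-ratios scaling and quantile normalization they were 0.20 and 0.19 in the control (adjusted p = 0.0103 and 0.0168, limma) and 0.33 and 0.33 in Mct1f/fMb1Cre cells (adjusted p = 2.15e-04 and 3.78e-04). Without the first Mct1f/fMb1Cre library of day 3 the value in Mct1f/fMb1Cre cells was 0.16 and passed (adjusted p = 0.0436, limma). Whether and in which direction *Xrcc5* changed thus rests on the scaling, and in Mct1f/fMb1Cre cells whether it passed rests also on the libraries kept. *Prkdc* (chr16:15637866-15842235, plus strand), the gene for the kinase that Ku recruits, ranged from 6.03 to 6.97 FPKM on day 0 and from 5.47 to 6.09 FPKM on day 3. Its log2 fold changes were -0.09 (adjusted p = 0.279, limma) and -0.19 (adjusted p = 0.0261), and under quantile normalization they turned to 0.14 and 0.09. The value in Mct1f/fMb1Cre cells was -0.15 without the second Mct1f/fMb1Cre library of day 0. It did not pass without the second of day 3 (adjusted p = 0.0856, limma). The control value passed when scaled to the same total (-0.27, adjusted p = 0.0121, limma). It was -0.003 without the first control library of day 0 and -0.18 without the second.

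The genes for the ligation complex differed as well. *Lig4* (chr8:9969049-9977686, minus strand) had 2.86 and 2.88 FPKM in the control and 2.85 and 2.65 FPKM in Mct1f/fMb1Cre libraries on day 0, and 1.77 and 1.74, and 1.68, 1.45 and 1.85 FPKM, respectively, on day 3. All 5 day 3 libraries were lower, at 0.604 of the day 0 mean. The log2 fold changes of -0.49 (SE 0.0920, adjusted p = 4.27e-04, limma) and -0.50 (SE 0.0840, adjusted p = 1.84e-04) passed the adjusted p and missed the limit of 0.5. For a gene this low the added 1 FPKM compresses the change. With 0.1 FPKM added they were -0.68 and -0.70, past the limit, and under quantile normalization they were -0.06 and 0.01.

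*Xrcc4* (chr13:89774027-90089608, minus strand), the scaffold of the ligase, had 5.59 and 6.06 FPKM in the control and 5.80 and 6.01 FPKM in Mct1f/fMb1Cre libraries on day 0. On day 3 the control had 7.41 and 7.03 FPKM and the Mct1f/fMb1Cre libraries 5.72, 6.32 and 5.46 FPKM. Both control libraries of day 3 were thus higher than all other libraries, while the Mct1f/fMb1Cre libraries of the days overlapped. The log2 fold change was 0.27 (SE 0.0763, adjusted p = 0.00665, limma) in the control, under the limit, and -0.02 (adjusted p = 0.827) in Mct1f/fMb1Cre cells. Scaled to the same total it was 0.09 (adjusted p = 0.266) and -0.17 (adjusted p = 0.0369), under median-of-ratios scaling 0.45 and 0.17, and under quantile normalization 0.49 and 0.26. *Xrcc4* shares 112 exonic bases (2.66%) with *Tmem167* on the other strand. *Nhej1* (chr1:74967139-75125200, minus strand), the gene for the accessory factor XLF, ranged from 3.66 to 4.89 FPKM on day 0 and from 3.32 to 4.83 FPKM on day 3. The days overlapped in both genotypes, and the log2 fold changes of -0.16 (95% interval -0.49 to 0.18) and -0.10 (-0.40 to 0.21) did not pass the test (adjusted p = 0.352 and 0.528, limma). Both turned to 0.14 and 0.27 under quantile normalization. The control value was -0.29 without the first control library of day 0 and -0.02 without the second. The value in Mct1f/fMb1Cre cells was 0.04 without the first Mct1f/fMb1Cre library of day 0 and -0.23 without the second.

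Among the genes of break signalling, *Atm* (chr9:53439149-53536740, minus strand) showed the largest activation effect of the 10. It had 10.3 and 8.68 FPKM in the control and 9.54 and 9.23 FPKM in Mct1f/fMb1Cre libraries on day 0. On day 3 it had 22.1 and 25.4 FPKM in the control and 21.0, 20.1 and 22.0 FPKM in Mct1f/fMb1Cre libraries. The lowest day 3 library was well above the highest day 0 library, and the mean was 2.34 times higher. The log2 fold change was 1.24 (SE 0.0847, adjusted p = 9.15e-08, limma) in the control and 1.09 (SE 0.0773, adjusted p = 1.22e-07) in Mct1f/fMb1Cre cells.

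*Mad2l2* (chr4:148130384-148145699, plus strand), which encodes REV7, followed. It had 16.4 and 14.1 FPKM in the control and 16.8 and 14.96 FPKM in Mct1f/fMb1Cre libraries on day 0. On day 3 it had 33.6 and 32.4 FPKM in the control and 27.7, 32.3 and 32.1 FPKM in Mct1f/fMb1Cre libraries, 2.03-fold the day 0 mean. The first Mct1f/fMb1Cre library of day 3 was the lowest of that day and still far above day 0. The log2 fold change was 1.07 (SE 0.0880, adjusted p = 4.70e-07, limma) in the control and 0.91 (SE 0.0804, adjusted p = 7.95e-07) in Mct1f/fMb1Cre cells. REV7 also serves in translesion synthesis and in mitosis, apart from its role at breaks. Without the first Mct1f/fMb1Cre library of day 0, the values in Mct1f/fMb1Cre cells were 1.11 for *Atm*, 0.99 for *Mad2l2*, 0.32 for *Rif1* and -0.46 for *Lig4*.

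*Rif1* (chr2:52072832-52122383, plus strand) had 5.96 and 5.13 FPKM in the control and 5.99 and 5.86 FPKM in Mct1f/fMb1Cre libraries on day 0. On day 3 it had 7.30 and 7.80 FPKM, and 8.02, 7.28 and 7.36 FPKM, respectively. The days did not overlap, and the log2 fold changes of 0.39 (adjusted p = 7.27e-04, limma) and 0.30 (adjusted p = 0.00203) stayed under the limit of 0.5 as deposited. Scaled to the same total, the latter was 0.15 and did not pass (adjusted p = 0.104). RIF1 also acts in the timing of replication. *Trp53bp1* (chr2:121193281-121271407, minus strand), to which RIF1 is recruited, ranged from 10.4 to 12.4 FPKM on day 0 and from 9.29 to 10.9 FPKM on day 3. Its log2 fold changes were -0.25 (adjusted p = 0.0189, limma) and -0.20 (adjusted p = 0.0381), and neither passed under median-of-ratios scaling (-0.06 and 0.00, adjusted p = 0.513 and 0.957) or quantile normalization (-0.07 and 0.02). The control value was -0.13 without the first control library of day 0 and -0.24 and -0.26 without the first and second of day 3, and did not pass (adjusted p = 0.186, 0.0718 and 0.0549). The value in Mct1f/fMb1Cre cells did not pass without the second Mct1f/fMb1Cre library of day 0 (-0.13), the first or second of day 3 (-0.16 and -0.18) or either control library of day 3. Its exons overlap those of *Tubgcp4* on the opposite strand over 2130 bases (15% of its exonic bases), the largest such overlap among the members.

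Partner genes were also set against each other within each library, since a factor common to all genes of a library drops out of a ratio of FPKM. The *Xrcc6*/*Xrcc5* ratio was 1.43 and 1.50 in the control and 1.51 and 1.45 in Mct1f/fMb1Cre libraries on day 0. On day 3 it was 2.22 and 2.25 in the control and 1.98, 1.95 and 1.90 in Mct1f/fMb1Cre libraries. All 5 day 3 libraries were higher, by 0.48 on the log2 scale. The 3 Mct1f/fMb1Cre libraries of day 3 lay below both control libraries, a difference for which 3 libraries against 2 cannot reach an exact p under 0.05.

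The *Xrcc4*/*Lig4* ratio went from 1.96 and 2.10 in the control and 2.04 and 2.27 in Mct1f/fMb1Cre libraries to 4.19 and 4.04, and to 3.41, 4.36 and 2.95, respectively, higher by 0.85 on the log2 scale. The *Rif1*/*Trp53bp1* ratio went from 0.481 and 0.495, and 0.538 and 0.477, to 0.786 and 0.827, and 0.842, 0.738 and 0.677, higher by 0.63 on the log2 scale. For each of the 3 pairs the exact two-sided permutation test of the days over both genotypes (5 libraries against 4) gave p = 0.0159, the smallest it can give, and 0.0159 after Benjamini-Hochberg adjustment over the 3 pairs. The share of other gene pairs that reach this value was not computed. Of single tested genes, 91.9% in the control and 89.8% in Mct1f/fMb1Cre cells did not overlap between the days. Except in the first Mct1f/fMb1Cre library of day 0, the level of *Ddx3y* also went with the day. A ratio of transcripts says nothing of the ratio of the proteins, and *Xrcc6*, *Xrcc4* and *Trp53bp1* carry the overlaps with other genes given above.

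**Figure D3:**
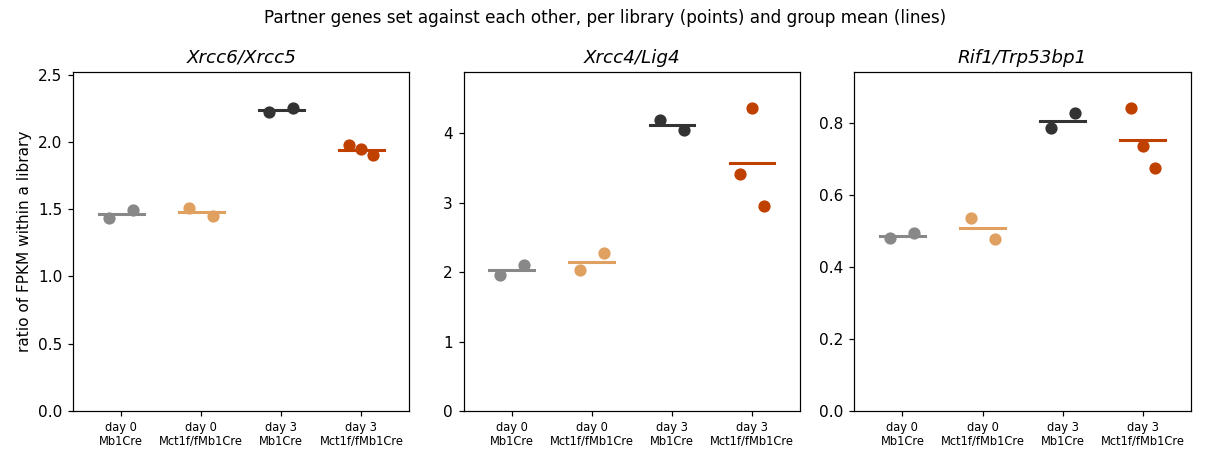
Ratios of FPKM of partner genes within each library (vertical axes, starting at 0), with a point for each of the 9 libraries and a line for each group mean. In all 3 pairs the 5 day 3 libraries lie above the 4 day 0 libraries, and for *Xrcc6*/*Xrcc5* the Mct1f/fMb1Cre libraries of day 3 lie below those of the control.

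Promoter sequence was examined for the members, in the RefSeq windows of GRCm38.p6 that run from 250 bases before to 50 bases after a start site. Of the 10 members, 8 had a window and 10 windows were found, since *Lig4* and *Mad2l2* had 2 start sites each. The windows of *Atm* and *Xrcc6*, which rose, and of *Lig4*, which was lower in all day 3 libraries as deposited, are shown because they differ in the motifs they hold and in their neighbours. Capitals mark matches, on either strand, to the letters searched: GCGGGAA and GCGCGAA (E2F), CCAAT (NF-Y), CACGTG (E-box), GCATGCG (NRF1) and CCGGAA (ETS).
*Atm*, chr9:53536622-53536921, minus strand: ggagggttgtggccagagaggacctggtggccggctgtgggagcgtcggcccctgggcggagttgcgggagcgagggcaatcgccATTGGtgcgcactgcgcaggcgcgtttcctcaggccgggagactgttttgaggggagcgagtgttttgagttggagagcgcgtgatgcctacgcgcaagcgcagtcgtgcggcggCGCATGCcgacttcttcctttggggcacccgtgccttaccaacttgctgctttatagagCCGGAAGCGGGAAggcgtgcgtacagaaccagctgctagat
*Xrcc6*, chr15:82016119-82016418, plus strand: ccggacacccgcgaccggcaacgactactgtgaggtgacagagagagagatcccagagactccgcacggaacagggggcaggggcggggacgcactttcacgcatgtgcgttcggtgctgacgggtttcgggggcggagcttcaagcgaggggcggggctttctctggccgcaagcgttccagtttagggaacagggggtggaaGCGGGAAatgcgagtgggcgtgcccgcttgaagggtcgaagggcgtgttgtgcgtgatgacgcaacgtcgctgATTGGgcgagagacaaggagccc
*Lig4*, chr8:9977631-9977930, minus strand: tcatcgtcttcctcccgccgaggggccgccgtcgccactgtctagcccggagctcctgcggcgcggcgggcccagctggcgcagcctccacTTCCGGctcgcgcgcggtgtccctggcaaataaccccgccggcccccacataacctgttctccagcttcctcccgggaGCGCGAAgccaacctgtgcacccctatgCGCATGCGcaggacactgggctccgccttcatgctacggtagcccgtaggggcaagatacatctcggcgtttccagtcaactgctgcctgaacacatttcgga

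In the *Atm* window an ETS match runs directly into an E2F match, and both follow the start site. An NRF1 match and an NF-Y match stand before it on the other strand. The *Xrcc6* window holds an E2F match before the start and an NF-Y match on the other strand after it. In the *Lig4* window the E2F match has the other spelling, the ETS match is on the other strand, and the NRF1 matches of both strands overlap each other. An E2F match of either spelling stood in 4 of the 10 windows (*Atm*, *Lig4*, *Xrcc4* and *Xrcc6*), beside 6.0% of all 32851 RefSeq windows of this length. These windows include genes that were not tested here, and the share among tested genes alone was not computed for any motif. GCGGGAA alone stood in 4.60% of all windows and GCGCGAA in 1.59%. CCAAT stood in the windows of *Atm*, *Mad2l2*, *Xrcc5* and *Xrcc6* (37.4% of all windows), GCATGCG in those of *Atm*, *Lig4* and *Xrcc5* (3.58%), CCGGAA in those of *Atm*, *Lig4* and *Xrcc4* (14.9%), and CACGTG in that of *Xrcc5* (7.15%). The windows of *Nhej1* and *Trp53bp1* held none of these letters. E2F matches thus stood in the windows of *Atm* and *Xrcc6*, which rose, in that of *Xrcc4* and in 1 window of *Lig4*, and in neither window of *Mad2l2*, which also rose. Every window printed above holds an E2F match, while the *Mad2l2* windows and the other *Lig4* window, which hold none, are not printed. A match is only a run of letters, and no binding was measured here.

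Several members share their promoter region with a gene that runs the other way. After the members' values had been seen, the start sites of the 10 were compared with those of genes on the opposite strand that lead away from them within 1000 bases. Such a neighbour was found for 6 members, *Desi1* at 149 bases from *Xrcc6*, *Mcm4* at 466 from *Prkdc*, *Abhd13* at 37 from *Lig4*, *Tmem167* at 59 from *Xrcc4*, *Draxin* at 222 from *Mad2l2* and *Npat* at 376 from *Atm*. Among the 8 members with a RefSeq window 5 had one, beside 20.5% of the 8788 tested genes with a window.

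The neighbours of *Atm* and *Xrcc6* were called higher as well. *Npat*, an activator of histone genes at the start of S phase, had 7.06 to 7.11 FPKM in the 4 day 0 libraries, and 12.7 and 14.1 in the control and 13.5, 12.7 and 13.0 FPKM in the Mct1f/fMb1Cre libraries of day 3. Its log2 fold changes were 0.83 and 0.80 (adjusted p = 2.31e-07 and 1.41e-07, limma). *Desi1*, which overlaps *Xrcc6*, rose by 0.67 in the control and 0.56 in Mct1f/fMb1Cre cells (adjusted p = 3.54e-07 and 6.45e-07). *Abhd13*, beside *Lig4*, had log2 fold changes of -0.36 in the control, under the limit, and -0.58 in Mct1f/fMb1Cre cells (adjusted p = 3.11e-04 and 2.66e-06).

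For the other pairs the values are given with no test of the difference. *Mcm4*, a subunit of the replicative helicase, rose by 1.70 and 1.66 (adjusted p = 3.07e-11 and 1.73e-11, limma) while *Prkdc* beside it was at -0.09 and -0.19. *Tmem167* was at 0.08 and 0.02 (adjusted p = 0.250 and 0.804), beside 0.27 and -0.02 for *Xrcc4*. *Draxin* had at most 0.17 FPKM in any library and was not tested, while *Mad2l2* beside it had 14.1 FPKM or more. Over all 158 pairs of this kind in which both genes were called in the control, 99 pairs (62.7%) changed in the same direction. Of all genes called in the control 42.9% were higher, and the share for pairs of genes that are not neighbours was not computed.

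The genotypes were compared next. On day 3, 0 of 10 members were called between Mct1f/fMb1Cre and Mb1Cre cells, against 2.42% of tested genes, and 2 members had an unadjusted p under 0.05, against 29.0% of tested genes. The members' fold changes ranged from -0.27 (*Xrcc4*) to 0.16 (*Xrcc5*), with a median of -0.04, and 3 were above and 7 below 0. Without the second Mct1f/fMb1Cre library of day 3 the median was -0.003. The signs of *Rif1*, *Nhej1* and *Lig4* turned when some libraries were left out. The 95% intervals of all 10 lay within 0.5 in either direction, with a lowest bound of -0.42 (*Xrcc4*) and a highest of 0.30 (*Nhej1*), so that a change past the limit on the log2(FPKM + 1) scale lay outside each interval. The genotypes did not overlap for 5 members (*Atm*, *Mad2l2*, *Trp53bp1*, *Xrcc4* and *Xrcc5*), against 47.1% of tested genes.

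By adjusted p alone 1 member passed, against 15.2% of genes. This was *Xrcc4*, whose 3 Mct1f/fMb1Cre libraries lay below both control libraries on day 3 (80.8% of the control mean). Its log2 fold change was -0.27 (SE 0.0697, adjusted p = 0.0265, limma, 0.0206 to 0.185 over the alternatives), under the limit of 0.5. It did not pass with no filter on low values, under quantile normalization, with a replicate block, or without either control library or the first or the third Mct1f/fMb1Cre library of day 3. *Xrcc5* was higher in all 3 Mct1f/fMb1Cre libraries, by 0.16 (adjusted p = 0.117), and *Atm* was lower in all 3, at -0.17 (adjusted p = 0.188), and neither passed. The *Atm* value was -0.26 without the first control library of day 3 and -0.07 without the second. *Rif1* and *Nhej1* were at 0.00 and -0.01. With a library left out, *Rif1* lay between -0.04 and 0.04 and *Nhej1* between -0.15 and 0.07.

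On day 0, 0 of 10 members were called, against 0.277% of genes, and 0 had an unadjusted p under 0.05, against 11.7% of genes. None passed by adjusted p alone, against 0.416% of genes, and the smallest adjusted p was 0.722 (*Rif1*, limma). Only *Lig4* did not overlap between the genotypes, against 38.4% of genes. The lowest bound of a 95% interval was -0.40 and the highest 0.27, both for *Nhej1*. The difference between the genotypes' responses to activation was tested as an interaction. No member was called (against 3.23% of genes) or passed by adjusted p alone (against 9.42%), and 1 had an unadjusted p under 0.05, against 25.4% of genes. This was *Xrcc4*, at -0.29 (SE 0.103, adjusted p = 0.114, limma). The lower *Xrcc4* response in Mct1f/fMb1Cre cells is thus not shown to differ from that of the control after adjustment.

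**Figure D4:**
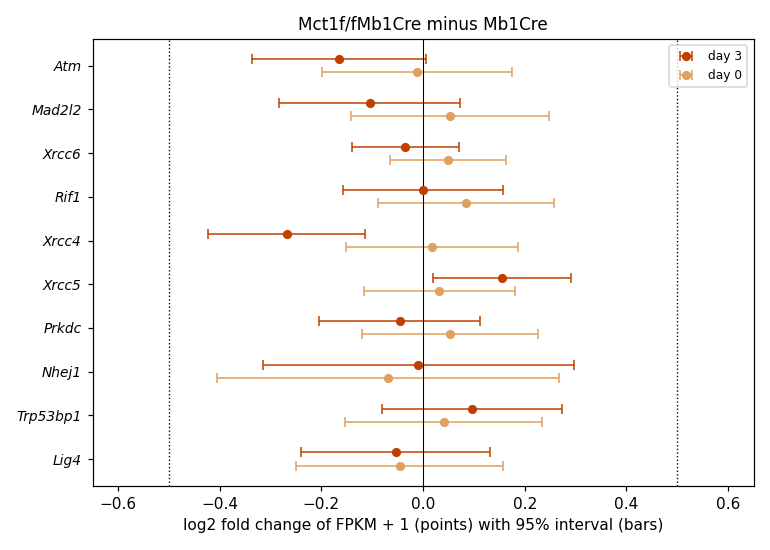
Log2 fold changes of FPKM + 1 between Mct1f/fMb1Cre and Mb1Cre B cells (horizontal axis, points) with 95% intervals (bars) for the 10 genes on day 3 and day 0. All intervals lie between the dotted lines at 0.5 in each direction, and on day 3 that of *Xrcc4* lies below 0 and that of *Xrcc5* above 0.

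The rest of the repair machinery was described by lists. Over all tested genes, activation called 24.8% higher and 33.0% lower in the control, and 23.4% and 33.2% in Mct1f/fMb1Cre cells. Of 10 other genes of classical end joining 9 were tested, and 1 rose and 5 fell in each genotype, with medians of -0.50 in the control and -0.60 in Mct1f/fMb1Cre cells. The gene that rose was *Ercc6l2*, which encodes a helicase-like protein with a role in end joining, from 5.15 to 6.34 FPKM on day 0 to 81.2 and 85.6 FPKM in the control and 61.1, 61.6 and 59.9 FPKM in Mct1f/fMb1Cre libraries on day 3 (log2 fold changes of 3.65 and 3.16, adjusted p = 1.02e-11 and 1.11e-11, limma). *Polm*, a polymerase that fills ends, fell by 1.30 and 1.46, *Paxx*, a Ku-binding accessory factor, by 0.85 and 0.96, and *Cyren*, a modulator of Ku, by 0.50 and 0.64. On day 3 none of the 9 was called between the genotypes, and 3 passed the adjusted p alone, against 15.2% of all tested genes. Of these *Ercc6l2* was at -0.45 (adjusted p = 0.00179), and *Polm* at -0.26 and *Aplf* at -0.32, with *Aplf* named after its values were seen.

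Of 20 genes that act with 53BP1, in shieldin or on chromatin at breaks, 5 rose and 3 fell in each genotype, with medians of 0.00 and 0.05. *Pola1*, the catalytic subunit of the polymerase that primes fill-in synthesis, rose by 1.51 in both genotypes, and *H2ax*, the histone that ATM phosphorylates, by 0.87 and 1.20. *Mdc1*, the reader of that phosphorylation, fell by 0.81 and 0.77, and *Kmt5b*, which deposits the histone methylation that 53BP1 reads, by 1.53 and 1.49. Of 14 genes for damage kinases and sensors 6 rose and 1 fell, with medians of 0.28 and 0.40. *Chek1* rose by 2.51 and 2.08, *Clspn*, its mediator, by 2.24 and 2.25, and *Mre11a*, a nuclease subunit that binds breaks, by 0.60 and 0.55. *Rad9a*, of the checkpoint clamp, fell by 0.88 and 0.92. *Trp53* was the most abundant gene of this list in every library.

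Of 11 genes of alternative end joining, 3 rose and 2 fell in the control, and 3 rose and 3 fell in Mct1f/fMb1Cre cells, with medians of 0.12 and 0.16. *Lig1*, a replicative ligase, rose by 2.54 and 2.43 and *Fen1*, a flap nuclease, by 1.94 and 1.96, while *Ercc4*, a nuclease subunit, fell by 0.88 and 0.73 and *Hmces*, which shields abasic sites, by 2.21 and 2.55. Of 16 genes of resection and homologous recombination 15 rose in the control and 12 in Mct1f/fMb1Cre cells and none fell, with medians of 1.13 and 1.05. *Exo1*, a resection nuclease, rose by 2.50 and 2.65. Among the smallest effects called in both genotypes was that of *Xrcc3*, which acts in strand exchange (0.71 and 0.90). No gene of these lists was called between the genotypes on day 3 or in the interaction. By adjusted p alone, 3 of the 20 genes around 53BP1, 4 of the 11 of alternative end joining, and none of the 14 kinases and sensors or of the 16 of homologous recombination passed on day 3. The share over all tested genes was 15.2%.

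**Figure D5:**
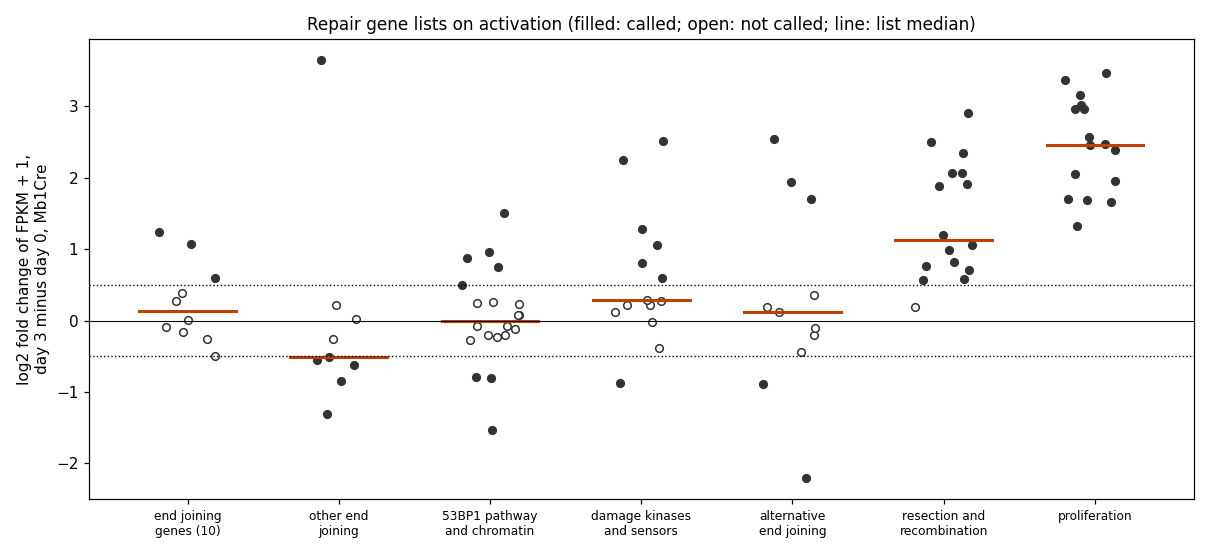
Log2 fold changes of FPKM + 1 between day 3 and day 0 in Mb1Cre B cells (vertical axis) for the tested genes of each list, with filled points for called genes, open points for those not called and a line at the list median. The 10 end joining genes lie between -0.49 and 1.24, while the proliferation genes all lie above 1.3.

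Other measures moved with the days. All 16 proliferation genes rose in both genotypes, with medians of 2.46 and 2.23, and *Pcna* was the most abundant of them in every library. Of 8 B cell markers 7 fell in each genotype, and their summed level went from between 4415 and 4858 FPKM on day 0 to between 2218 and 2309 FPKM on day 3, with none at 0 in any library and *Cd79a* or *Cd79b* the most abundant. Of the 10 myeloid markers the 9 tested all fell, and their sum went from between 1025 and 1838 FPKM, with *Lyz2* at 614 to 809 FPKM, to between 15.9 and 26.6 FPKM, with *Ly6g*, *S100a9* or *Mpo* at 0 in some day 3 libraries. The summed level of 11 T and NK cell genes went from between 94.9 and 106 FPKM to between 19.7 and 24.1 FPKM (10 of 10 tested fell). That of 8 erythroid and platelet genes went from between 102 and 183 FPKM to between 6.85 and 10.2 FPKM, with *Hbb-bs* and *Slc4a1* at 0 in every day 3 library. Of 6 plasma cell markers 5 were tested, and 4 rose and 1 fell in the control and 2 rose and 2 fell in Mct1f/fMb1Cre cells, with *Xbp1* the most abundant on day 3 at 230 to 256 FPKM. All 4 sex-linked genes measured were called higher in the control on day 3 and none was called in Mct1f/fMb1Cre cells. The part of these shifts in the members' activation effects was not tested, and in bulk RNA fewer cells of a type cannot be told apart from less RNA per cell.

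Of the 9 myeloid markers tested, 2 were called higher and none lower between the genotypes on day 3. *Lyz2* was higher by 0.71 and *Adgre1* by 0.68 in Mct1f/fMb1Cre cells (adjusted p = 0.00150 and 4.25e-04, limma), and *Tyms*, a proliferation gene, was lower, at -0.57 (adjusted p = 1.31e-04). The other myeloid markers did not pass and lay on both sides of 0, from -0.82 (*S100a9*) to 0.36 (*Itgam*). The other 15 proliferation genes were not called, and *Pcna* had 293 and 293 FPKM in the control and 292, 292 and 289 FPKM in Mct1f/fMb1Cre libraries. The part of these differences in the *Xrcc4* values was not tested.

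The tested genes whose pattern over the 9 libraries was most like that of each member were listed by Pearson's r of log2(FPKM + 1). With so large a difference between the days, high values mark genes that separate the days and are given as a description. For *Atm* these were *Ptpn9* (0.999), *Ube2t* (0.997) and *Pitpnb* (0.996), and *Ercc6l2* (0.994) within the repair lists. For *Mad2l2* they were *Mrps28*, *Smyd2* and *Mcm8* (0.995 to 0.996), with *Mre11a* (0.990) in the lists, and for *Xrcc6* they were *Mmab* (0.999), *Nup133* and *Egr2* (0.998 each), with *Chek1* (0.996). *Rif1* was most like *Cul4b* (0.993), *Surf6* (0.990) and *Grpel2* (0.989), with *Chek2* (0.975), and *Lig4* like *Phka2* (0.996), *Inafm2* (0.995) and *Dab2ip* (0.994), with *Mdc1* (0.979).

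The members with small activation effects had looser likenesses. *Xrcc4*, which was higher in the activated control than elsewhere, was most like *Dpm1* (0.967), *Batf3* (0.955) and *E130311K13Rik* (0.949), with *Atmin* (0.795) in the lists. *Xrcc5* was most like *Aldh1b1* (0.943), *Mdn1* (0.904) and *Polr3e* (0.901), with *Ercc1* (0.884). *Prkdc* was most like *4931406C07Rik* (0.967), *Gramd1c* (0.953) and *Trim59* (0.948), and *Trp53bp1* like *Gm52520* (0.957), *Mical3* (0.941) and *Vps52* (0.930), both with *Rnf8* in the lists (0.921 and 0.871). *Nhej1*, the member with the fewest fragments, had the lowest, with *Flot2* (0.810), *Rab7* (0.808), *Ddah2* (0.795) and, in the lists, *Pagr1a* (0.763).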

How the data were processed

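RNA sequencing of 9 libraries was used, with groups and replicate numbers as the labels give them. FPKM values were deposited by the authors, rounded to 2 decimals, 1 row per gene, which include their normalization to transcript length and to mapped fragments. The submitters' processing notes name Bowtie2 and GRCm38 (mm10), and the annotation and strand setting are not given in the sources used here. Read counts were not part of the values, and 0 columns of the table were left unmapped.

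The log2 of each value after adding 1 FPKM was taken without further scaling. This scale compresses the changes of low genes. Genes whose mean over all libraries reached 1 FPKM (10823 genes, all 10 members among them) were fitted in limma 3.58.1 (R 4.3.3), with a mean for each group and trended empirical Bayes moderation, and p values were adjusted over all tested genes by Benjamini-Hochberg. Single values and ratios were compared by exact two-sided permutation tests (scipy 1.17.1). The procedure was tested on simulated data.

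The members, the gene lists and the tests were chosen with earlier results of these data known. Named were all members, *Slc16a1*, the genes of each repair list called between genotypes, the 2 largest and 2 smallest activation effects called alike in both genotypes, abundant or defining markers, and the genes most like each member. Some genes that this rule takes are not reported here. The promoter motifs were set with them. The divergent neighbours, the depth estimate and the crossed pairing were added after values were seen. The depth estimate took genes with transcripts of 600 to 2000 bases, of whose low values 62.5% to 67.9% lay within 0.2 of a whole multiple of the step (40% if spread evenly), too few to recover reads. Gene positions and overlaps come from GENCODE for GRCm38, and promoter windows from RefSeq. The alternatives were pseudocounts of 0.1 and 5, other filters and scalings, only the groups compared, no trend, other fold limits, the replicate number as a block and each library left out. Intervals cover 95% of the model's error only.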

Additional observations from a re-analysis of the deposited data

Results flagged for a closer look

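No member stood out by these rules. Among the genes set beside them, the response to activation differed between the genotypes by an interaction test (limma) for 6 genes, with values on the log2 scale. It was lower in Mct1f/fMb1Cre cells for *Slc16a1* (-1.06, adjusted p = 4.24e-04), *Tyms* (-0.78, adjusted p = 6.37e-04) and *Jchain* (-1.44, adjusted p = 0.00246). The value was -0.91 for *Hba-a1* (adjusted p = 0.00410), 0.57 for *Lyz2* (adjusted p = 0.0466) and 0.51 for *Adgre1* (adjusted p = 0.0289), all of which fell in both genotypes. These values were not followed up.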

How the results depend on the processing

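As deposited, no genotype or interaction effect of a member was called. All lay under the limit of 0.5 in size, so that staying on that side was nearly fixed in advance. They did so under all alternatives (208 of 208 values on day 0 and for the interaction, and 207 of 208 on day 3), except that *Xrcc4* was called on day 3 (1 member) with no limit on the fold change. With a library left out, signs turned on day 0 for all members but *Lig4*. In the interaction they turned for *Lig4*, *Nhej1*, *Trp53bp1* and *Rif1*. The members' median on day 0 was 0.036, and 0.11 and -0.040 without the first and the second control library of day 0. *Atm* was called under all alternatives in both genotypes, and *Mad2l2* under all but a limit of 1 in Mct1f/fMb1Cre cells, where 1 member (*Atm*) was called. Under a filter of 5 FPKM *Lig4* and *Nhej1* were not tested. The call of *Xrcc6* was lost with a pseudocount of 5 (0.50 and 0.43), when scaled to the same total (0.40 and 0.34) and with a limit of 1. *Lig4* was called lower with a pseudocount of 0.1 and when scaled to the same total (-0.63 and -0.62), and *Rif1* was called higher in the control under median-of-ratios scaling (0.57) and in both genotypes under quantile normalization (0.60 and 0.57). With no limit 7 members were called in each genotype. Directions turned in the control for *Xrcc5* when scaled to the same total (-0.18) and without the second control library of day 0 (-0.072), and for *Prkdc* and *Nhej1* under quantile normalization (0.14 each) and median-of-ratios scaling (0.090 and 0.015). In Mct1f/fMb1Cre cells they turned for *Xrcc5* when scaled to the same total (-0.035), for *Prkdc* (0.086), *Lig4* (0.0091), *Xrcc4* (0.26), *Nhej1* (0.27) and *Trp53bp1* (0.016) under quantile normalization and for *Xrcc4* (0.17), *Nhej1* (0.079) and *Trp53bp1* (0.0044) under median-of-ratios scaling. There they also turned for *Nhej1* without the first library of day 0 (0.040), and for *Xrcc4* without the second of day 0 (0.0051), without the third of day 3 (0.023) and with a replicate block (0.023). The share of called genes that were higher on day 3 was 42.9% in the control as deposited, 31.8% scaled to the same total, 55.7% under median-of-ratios scaling and 51.3% under quantile normalization, and in Mct1f/fMb1Cre cells it was 41.4%, 31.6%, 55.2% and 51.7%.

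Among all genes, those called on day 3 between genotypes (262) numbered 421 and 120 with pseudocounts of 0.1 and 5, 54 with a limit of 1 and 1650 with none. On day 0 (30) they numbered 13 with no filter, 2 with only the groups compared and 16 with a limit of 1, and between 22 and 102 with a library left out, 102 without the second control and 67 without the second Mct1f/fMb1Cre library of day 0. With a limit of 1, activation called 3191 genes in the control and 2994 in Mct1f/fMb1Cre cells, and with none 9258 in the latter. The interaction (350) called 156 with a pseudocount of 5, 56 with a limit of 1 and 1020 with none, and 262 to 440 with a library left out. With a library left out, the activation values in Mct1f/fMb1Cre cells lay between 0.49 and 0.53 for *Xrcc6* and between -0.55 and -0.44 for *Lig4*, thus on both sides of the limit. Where a group was left with 1 library, that library was assumed to vary like the other groups. The ratios lay between 0.45 and 0.51 (*Xrcc6* to *Xrcc5*), 0.79 and 0.93 (*Xrcc4* to *Lig4*) and 0.60 and 0.68 (*Rif1* to *Trp53bp1*), with exact p values at the smallest the design allows.

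Same-numbered libraries did not deviate together (r of -0.12 to 0.06), so the numbers are not taken as pairs. With a replicate block in the fit, 262 genes were called between genotypes on day 3 and 27 on day 0, 6261 and 6103 for activation and 274 for the interaction, and 4 members in Mct1f/fMb1Cre cells, where *Lig4* (-0.55) was added. With the numbers of the day 0 control libraries crossed, 6264 genes and 3 members were called for activation in the control.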
